A study of Mus musculus with 16 samples.

Results

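Myelin is the fatty membrane that oligodendrocytes wrap around axons in the central nervous system. Oligodendrocyte progenitors carry the platelet-derived growth factor receptor alpha on their surface, and as they mature they switch on the genes of the myelin sheath, which are among the most strongly transcribed genes of the adult brain. In mice the axons of retinal ganglion cells stay bare inside the eye and gain myelin only in the optic nerve, while the newborn cortex holds progenitors but has not yet begun to myelinate in earnest. The genes described here are Pdgfra, the progenitor receptor; Mbp, Mobp and Cldn11, a basic protein, a small basic protein and a tight junction claudin of the sheath; and Cnp, Mag and Mog, an enzyme, an adhesion protein and a surface protein of its non-compact and outer membranes. They were chosen by name: every probe set whose platform annotation gives 1 of these 7 symbols alone was taken. That gave 15 of the 12488 probe sets in the table, for 7 of the 8251 genes that have a probe set of their own. Pdgfra had 3 probe sets, Mobp 4, Mbp, Mag and Cldn11 2 each, and Mog and Cnp 1 each.

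The arrays measured total RNA of adult mouse retina and of mouse cortex from postnatal day 1. Retina was hybridised on 5 arrays at the first site and on 3 arrays at site 2, and cortex likewise, which makes 16 arrays. The retina RNA was a pool of 350 C57/B6 mice and the cortex RNA a pool of 19 mice. Every array of a tissue received an aliquot of its pool, although only the first-site labels describe the pools. The labels give the cortex mice as C57/B6 in the sample descriptions and as Swiss-Webster in the design text, so age, organ and possibly strain differ together between the tissues. No genotype, transgene or treatment is named. Because a group is a single pool, the p-values measure the technical spread between arrays and nothing measures the spread between animals.

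Intensities are given on a linear scale with each array's median set to 100. The deposited medians differed widely. Cortex replicate 2 of site 2 had the lowest, 45.7, and its ratio of the 5′ to the 3′ Gapdh control probe set was 0.603, against 1.05 to 1.31 on the other 15 arrays, so site 2 calls that its removal changes are also given without it. The same ratio for beta-actin was 0.541 on that array, 0.797 to 0.962 on the other cortex arrays and 0.558 to 0.667 on the retina arrays. The beta-actin ratio thus differed between the tissues, and its part in the tissue differences was not tested. Background was taken as the highest of 13 control probe sets with no added target, which lay between 12.6 and 37 on the scaled arrays. A probe set at or under that level on every array of a group is called at background there. Among markers listed for each tissue, 5 of 5 measured rod genes passed as higher in retina at each site, and 5 of 5 genes of newborn cortical neurons were lower. The summed scaled intensity of the rod genes ran from 34200 to 39500 in retina and from 58.7 to 80 in cortex at the first site.

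Mog and Cnp gave no signal above background in either tissue, and Mobp gave almost none. Of the 15 probe sets, 7 were at background on all 16 arrays, 5 were above it on all 16, and 3 were above it on some arrays. Mog, a glycoprotein of the outermost myelin layer, and Cnp, the phosphodiesterase of non-compact myelin, have no other probe set in the table under their own symbol. Signal on every array was seen for a probe set each of Pdgfra (95079_at) and Mag (161846_r_at), for both of Mbp, and for the second Pdgfra probe set (160332_at). The Mobp probe set 99047_at and both Cldn11 probe sets crossed background on some arrays. An array level at background does not show that a transcript is absent.

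**Figure D1:**
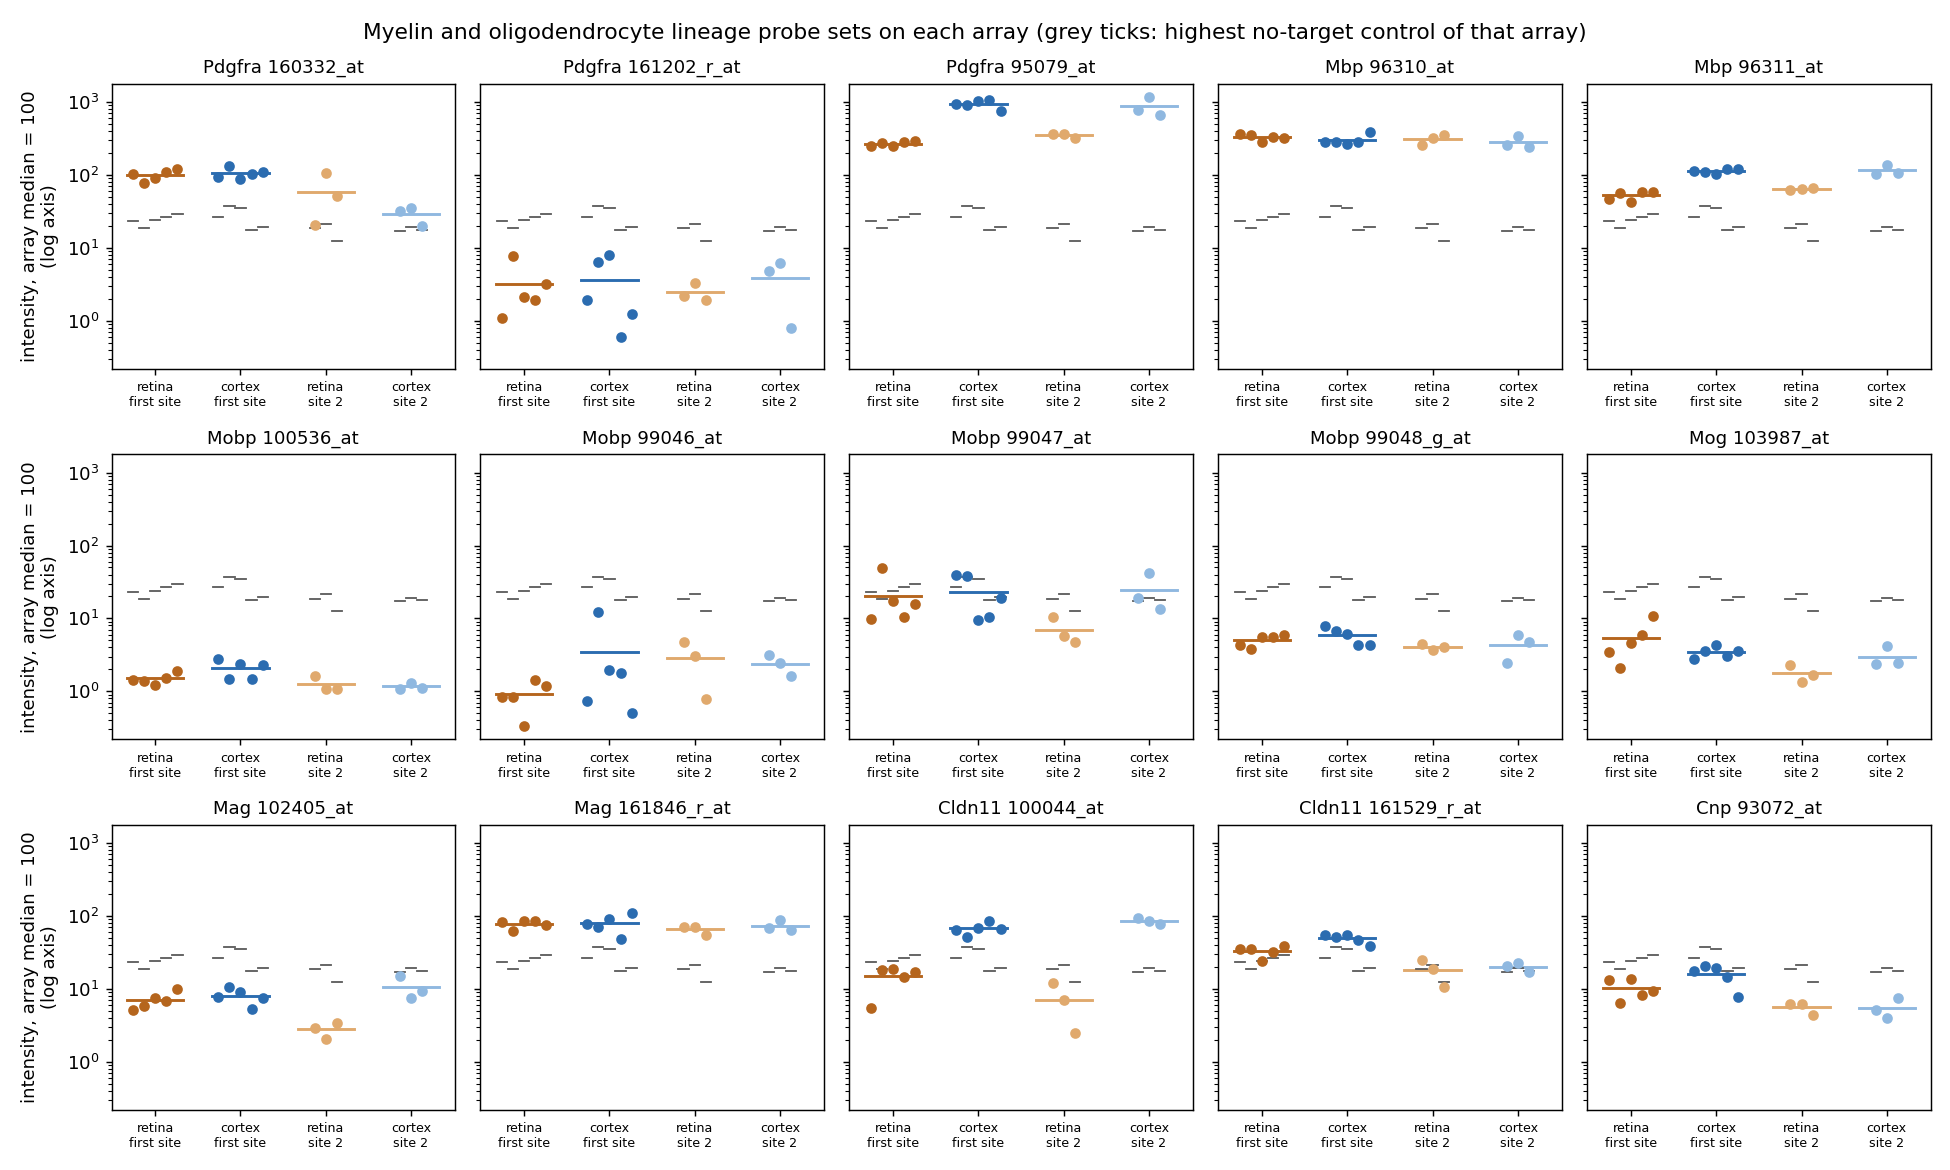
Scaled intensity (array median 100, log axis) of each of the 15 probe sets, with a point per array, a coloured line at the group mean and a grey tick at the highest no-target control of the same array; within each site, retina stands left of cortex. Pdgfra 95079_at, Mbp 96311_at and Cldn11 100044_at have lower retina points at both sites, and Mog, Cnp and 3 of the 4 Mobp probe sets lie under the grey ticks throughout.

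Between the tissues, 4 of the 15 probe sets were lower in retina at the first site and none was higher. They belong to Pdgfra, Mbp and Cldn11. Over all 12422 probe sets tested, 25.6% were lower and 22.3% higher, so the members' share of lower calls was close to the background. Their median log2 difference, retina minus cortex, was -0.06, where that of all probe sets was -0.024. At site 2, 4 of 15 were lower and none higher, against 15.8% and 16.7% of all probe sets, with a median of -0.10 for the members and -0.033 for all. Every retina array lay below every cortex array for 4 of the 15 at the first site and 6 at site 2, against 20.8% and 24.4% of all probe sets. Every retina array lay above for none, against 18% and 23.1%. The 6 at site 2 include Mog 103987_at and Mag 102405_at, which were at background in both tissues, so their order reflects no measured level. They also include Mobp 99047_at and Cldn11 100044_at, which were at background in retina. With the arrays left unscaled, Pdgfra 95079_at and Mbp 96311_at did not pass at site 2 (adjusted p = 0.3 and 0.78), nor Cldn11 161529_r_at at the first site (adjusted p = 0.1). All calls here are limma adjusted p under 0.05 with Benjamini-Hochberg adjustment over every probe set. In whole tissue, fewer cells of a type and less RNA per cell cannot be told apart.

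The RefSeq promoter windows of Pdgfra and Cldn11 are shown because these 2 genes gave the largest differences, in the same direction. Each window runs from 250 bases before to 50 bases after the annotated start of transcription in build GRCm38.p6, 5′ to 3′ on the gene's strand. The Pdgfra window is chr5:75152001-75152300 and the Cldn11 window chr3:31149670-31149969, both on the plus strand. Capitals mark every match, on either strand, to 4 short motifs, none of which overlapped another. These were CCAAT, bound by nuclear factor Y; the Sox factor core ACAAT; the TATA box as TATAAA; and the Sp1 box as GGGCGG.
Pdgfra: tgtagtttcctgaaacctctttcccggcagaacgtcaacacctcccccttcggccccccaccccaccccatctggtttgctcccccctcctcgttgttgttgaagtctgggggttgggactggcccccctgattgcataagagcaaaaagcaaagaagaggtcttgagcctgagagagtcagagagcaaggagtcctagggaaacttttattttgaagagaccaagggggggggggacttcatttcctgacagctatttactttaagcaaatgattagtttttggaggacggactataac
Cldn11: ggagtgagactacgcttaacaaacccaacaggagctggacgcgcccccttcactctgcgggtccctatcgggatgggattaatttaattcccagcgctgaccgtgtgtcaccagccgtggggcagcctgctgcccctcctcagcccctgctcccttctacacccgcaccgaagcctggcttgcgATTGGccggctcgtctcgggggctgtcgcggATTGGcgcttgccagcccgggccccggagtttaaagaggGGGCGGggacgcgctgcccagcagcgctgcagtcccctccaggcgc
The Cldn11 window held 2 matches to CCAAT, both on the minus strand at -66 to -62 and -35 to -31 from the start, and a match to GGGCGG at 5 to 10. The Pdgfra window held none of these letters. Of 32851 promoter windows of this length, 37.4% held CCAAT, 31% ACAAT, 13.6% TATAAA and 35.7% GGGCGG. The windows also differed in composition, with 66.3% G or C and 24 CpG dinucleotides for Cldn11 against 51% and 5 for Pdgfra, where the median window had 52.7% and 7. Windows were found for 6 of the 7 genes.

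Pdgfra, the receptor by which platelet-derived growth factor keeps progenitors dividing, was lower in retina on its brightest probe set. At the first site 95079_at read 249, 274, 253, 282 and 291 on the retina arrays, against 956, 913, 1040, 1060 and 767 on the cortex arrays. The groups did not overlap. The difference was -1.75 ± 0.09 on the log2(intensity + 16) scale (SE, limma adjusted p = 1.7e-09), which is 3.36-fold lower in retina. At site 2 it read 364, 363 and 322 in retina, against 783, 1190 and 665 in cortex, again without overlap. There the difference was -1.25 ± 0.21 (limma adjusted p = 0.0038), or 2.38-fold lower in retina, and -1.01 ± 0.11 (adjusted p = 0.00019) without cortex replicate 2, whose value was the highest.

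The order of the 4 groups on this Pdgfra probe set was cortex at the first site (948 ± 120, SD, n = 5), cortex at site 2 (880 ± 280, n = 3), retina at site 2 (350 ± 24, n = 3) and retina at the first site (270 ± 18, n = 5). The cortex groups overlapped. The retina groups did not, although their difference, site 2 minus first site, missed the threshold (0.36 ± 0.15 on the log2 scale, limma adjusted p = 0.065), and passed without cortex replicate 3 of site 2 (adjusted p = 0.037). Whether the tissue difference itself differed between sites was tested as an interaction, which gave 0.50 ± 0.21 (limma adjusted p = 0.20). Without cortex replicate 2 of site 2 the interaction was 0.73 ± 0.15 (adjusted p = 0.0082), toward a smaller difference at site 2, and the sites then differed within retina (0.36 ± 0.10, adjusted p = 0.0075) and within cortex (-0.38 ± 0.11, adjusted p = 0.022).

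The other 2 Pdgfra probe sets did not show the tissue difference. On 160332_at the retina arrays read 103, 78.5, 91.6, 110 and 119 at the first site, against 94.1, 134, 87.8, 103 and 110 on the cortex arrays, which overlap throughout (-0.06 ± 0.13, limma adjusted p = 0.74). At site 2 it was 20.8, 105 and 51.8 in retina, against 31.6, 35.3 and 20.1 in cortex, and the spread of the retina arrays was wide (0.59 ± 0.41, adjusted p = 0.33). The third, 161202_r_at, was at background on all arrays, with scaled intensities between 0.6 and 7.87. In Affymetrix names the suffix _r_at marks a probe set for which some design rules were dropped. Which of the 3 reads the receptor transcript best was not tested.

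Fibroblasts of the meninges also make Pdgfra, and their markers moved in the same direction. Of 6 such genes, all measured and each counted by its brightest probe set, 4 were lower in retina at each site and none higher. Over all genes so counted, 28.5% were lower and 25.7% higher at the first site, and 17.4% and 19.8% at site 2. The median log2 difference of the 6 was -1.47 at the first site and -1.73 at site 2. Their summed scaled intensity ran from 873 to 1200 in retina and from 1820 to 1960 in cortex at the first site, and from 578 to 626 in retina and 1390 to 2150 in cortex at site 2. Dcn, the proteoglycan decorin, differed by -2.17 ± 0.08 and by -2.88 ± 0.15 (log2, SE), and Col3a1, a fibrillar collagen, was at background on every retina array of the first site. Retinal astrocytes carry the receptor as well. Of 5 measured astrocyte genes, 3 passed as higher in retina at the first site: Aldoc (2.46), Aqp4 (1.62) and S100b (0.82, log2). Gfap passed as lower there (-0.42) and Pax2 did not pass (0.02). Mueller glia of the retina make Aqp4 too, so the 5 genes do not measure astrocytes alone. At site 2, 1 passed as higher, Aldoc, or 2 without cortex replicate 2, when S100b joined. The summed scaled intensity of the 5 ran from 4480 to 5180 in retina and from 1120 to 1430 in cortex at the first site. At site 2 it ran from 4140 to 5380 in retina and 1380 to 1940 in cortex. Aldoc alone averaged 3420 in retina at the first site and 4180 at site 2. Of 5 microglial genes 2 were lower at the first site and none at site 2, with sums of 533 to 596 in retina and 627 to 718 in cortex at the first site. The 2 were C1qb, whose call held in 12 of 19 alternative runs, and Csf1r, which did not pass without scaling (limma adjusted p = 0.3). Their other probe sets differed by 0.05 and 0.47 there, in the other direction. Egr2, the measured marker of Schwann cells, was lower at both sites (-0.50 and -1.04, log2). Its site 2 call was lost when any retina array there (adjusted p = 0.073, 0.062 and 0.12) or cortex replicate 3 (adjusted p = 0.051) was left out, and with quantile normalization (adjusted p = 0.056). The part of these cells in the Pdgfra difference was not tested.

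Among the progenitor markers listed beside Pdgfra, only Sox10 was measured. Sox10, a transcription factor of the whole oligodendrocyte lineage, averaged 170 in retina and 220 in cortex on the first-site arrays (-0.35 ± 0.08, log2, SE, limma adjusted p = 0.0017), and 121 in retina and 256 in cortex at site 2 (-0.99 ± 0.13, adjusted p = 0.0011). The difference was larger at site 2 (interaction -0.64 ± 0.13, adjusted p = 0.0093, and 0.052 with the replicate block). Its other probe set differed by -0.46 at the first site. Cspg4, Olig1 and Olig2 were not analysed here. Summed over Pdgfra and Sox10, the scaled intensity ran from 408 to 482 in retina and from 997 to 1280 in cortex at the first site.

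Mbp encodes the basic protein that holds the cytoplasmic faces of compact myelin together, and the same locus makes golli transcripts from an upstream start, which neurons and immune cells use too. Its 2 probe sets gave different results. On 96311_at the retina arrays of the first site read 47.2, 57.4, 42.7, 58.3 and 58.4, against 114, 111, 104, 120 and 121 in cortex. Every retina array lay below every cortex array, and the difference was -0.92 ± 0.11 on the log2 scale (limma adjusted p = 9.3e-06), or 1.90-fold lower in retina. At site 2 it read 61.8, 64.1 and 66.8 in retina, against 103, 139 and 105 in cortex, again without overlap (-0.70 ± 0.17, adjusted p = 0.019). That call was lost when any of the 3 retina arrays of site 2 was left out, where the adjusted p was 0.065, 0.069 and 0.058 with differences of -0.68, -0.70 and -0.73, and it held without cortex replicate 2 (-0.58 ± 0.15, adjusted p = 0.014).

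The brighter Mbp probe set, 96310_at, did not pass in either direction. It read 368, 349, 282, 335 and 318 on the retina arrays of the first site, against 282, 283, 267, 285 and 393 on the cortex arrays, with a difference of 0.13 ± 0.10 (log2, SE, limma adjusted p = 0.34). Cortex replicate 5 stood above the other 4 cortex arrays, and without it the difference was 0.23 ± 0.08 (adjusted p = 0.033), higher in retina. At site 2 the retina arrays read 254, 325 and 353, against 254, 341 and 245 in cortex (0.14 ± 0.18, adjusted p = 0.60). The annotation used here does not say which Mbp transcripts each probe set reads.

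Cldn11 encodes claudin 11, which forms the tight junctions between myelin lamellae and is also made by cells of the arachnoid barrier of the meninges. On 100044_at it was at background on all 8 retina arrays and above it on all 8 cortex arrays. It read 5.4, 17.9, 18.9, 14.6 and 17.3 in retina at the first site, against 65.2, 52.3, 69.3, 85.1 and 66.7 in cortex. Raising the dim retina values to the control level gives at least 2.79-fold less in retina (limma adjusted p = 4.2e-06). At site 2 the retina arrays read 12, 6.96 and 2.45, against 93.5, 85 and 78.3 in cortex, which gives at least 4.97-fold less in retina (adjusted p = 0.00022). The groups did not overlap at either site. With the retina level unmeasured at both, no difference between the sites in this fold could be measured. The part of meningeal cells, whose fibroblast markers were lower in retina as given above, was not tested.

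The second Cldn11 probe set, 161529_r_at, also carries the suffix for dropped design rules. It was lower in retina at the first site, by less, and did not pass at site 2. Its retina arrays read 35.2, 35.3, 24.3, 31.9 and 38.5, against 54.7, 51.8, 55.4, 46.8 and 39.1 in cortex, without overlap (-0.42 ± 0.13 on the log2 scale, limma adjusted p = 0.014). At site 2 the retina arrays read 25.3, 18.8 and 10.6, against 20.5, 22.8 and 17.3 in cortex, and the groups overlapped (-0.10 ± 0.19, adjusted p = 0.73). There 1 of 3 retina arrays and 2 of 3 cortex arrays were above background. The interaction for this probe set was 0.32 ± 0.22 (adjusted p = 0.46).

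**Figure D2:**
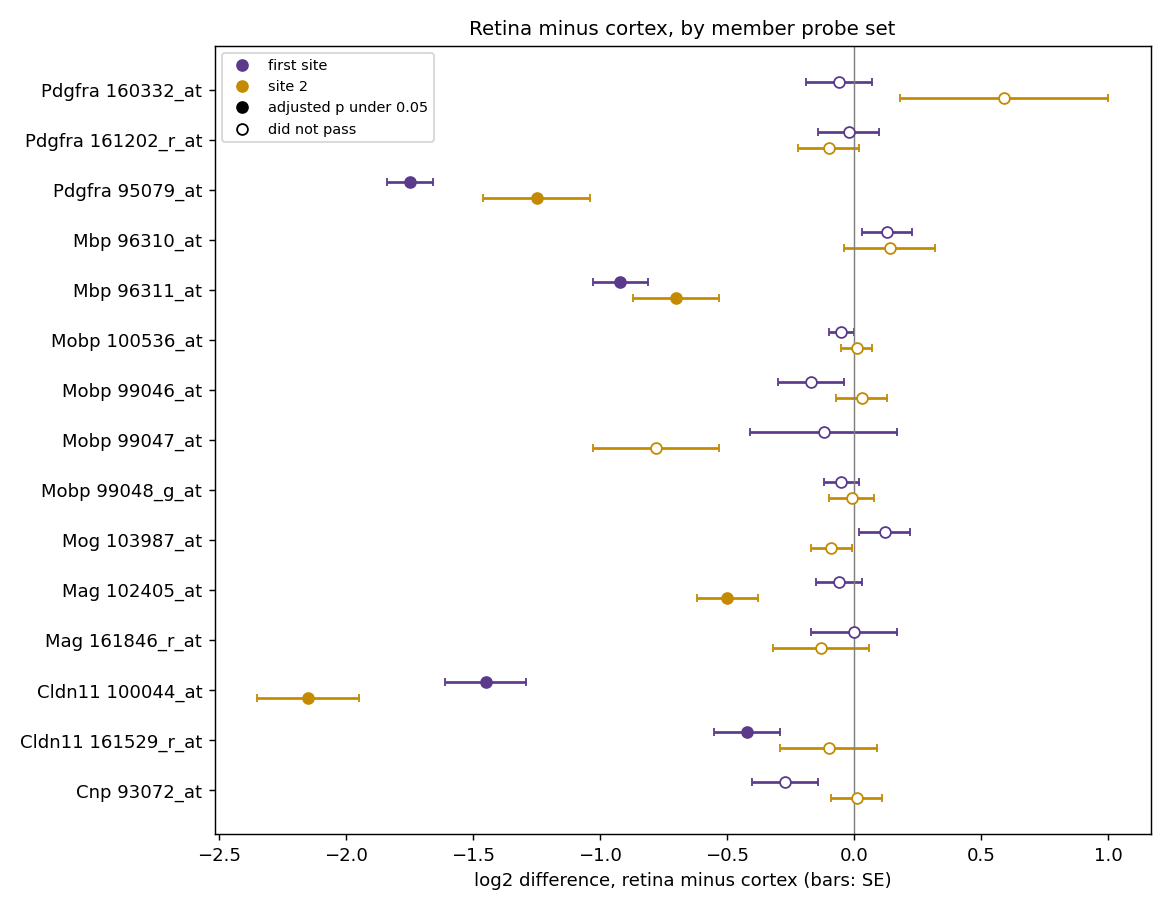
Log2 difference, retina minus cortex, of each probe set at the first site and at site 2, with bars of 1 SE and filled points where the limma adjusted p was under 0.05. Filled points lie left of 0 only, for Pdgfra 95079_at, Mbp 96311_at and Cldn11 100044_at at both sites, for Cldn11 161529_r_at at the first site and for Mag 102405_at at site 2.

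Mobp, a basic protein of compact myelin that appears late in development, was at or near background. On 3 of its 4 probe sets it never rose above, with group means between 0.925 and 5.88 in scaled intensity. On 99047_at the retina arrays of the first site read 9.7, 48.6, 17.3, 10.3 and 15.6, against 39.2, 38.1, 9.39, 10.3 and 19.2 in cortex, so 1 retina array and 2 cortex arrays were above background and the groups overlapped (-0.12 ± 0.29, log2, limma adjusted p = 0.77). At site 2 it read 10.4, 5.8 and 4.8 in retina, all at background, against 19.1, 41.8 and 13.5 in cortex (-0.78 ± 0.25, adjusted p = 0.053). It passed without cortex replicate 2 (-0.49 ± 0.15, adjusted p = 0.03) and without cortex replicate 3 (-0.98 ± 0.24, adjusted p = 0.028). With all arrays kept it passed at a pseudocount of 1 (-1.60 ± 0.48, adjusted p = 0.039) and with the replicate block (-0.78 ± 0.23, adjusted p = 0.044). The call thus depended on the cortex arrays used and on the settings.

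Mag, an adhesion protein of the myelin membrane facing the axon, also gave different readings on its 2 probe sets. On 161846_r_at, by its suffix a probe set with some design rules dropped, the signal was above background on every array and the tissues overlapped. It averaged 77.7 ± 10 over the retina arrays and 79.4 ± 23 over the cortex arrays of the first site (SD, n = 5 each), and 65.9 ± 9.0 in retina and 73.6 ± 12 in cortex at site 2 (n = 3 each), with log2 differences of 0.00 ± 0.17 and -0.13 ± 0.19 (SE, limma adjusted p = 0.99 and 0.66). The other, 102405_at, was at background on all 16 arrays. Its scaled values were 2.95, 2.03 and 3.43 in retina at site 2, against 15.2, 7.45 and 9.45 in cortex, and this passed the test (-0.50 ± 0.12, adjusted p = 0.02) with no measured level on either side. It did not pass when any of the 3 retina arrays of site 2 was left out (adjusted p = 0.062, 0.078 and 0.054), nor with the pseudocount added before centring (-0.58 ± 0.40, adjusted p = 0.34).

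For Mog the scaled intensities averaged 5.35 ± 3.3 over the retina arrays and 3.48 ± 0.61 over the cortex arrays of the first site (SD, n = 5 each), and 1.77 ± 0.48 in retina and 2.99 ± 1.0 in cortex at site 2 (n = 3 each). For Cnp they averaged 10.2 ± 3.2 over the retina arrays and 15.9 ± 5.1 over the cortex arrays of the first site, and 5.61 ± 1.0 in retina and 5.50 ± 1.8 in cortex at site 2. For 8 measured markers of mature oligodendrocytes, these 6 sheath genes among them, each gene was taken by its brightest probe set. Mbp thus enters by 96310_at and not by 96311_at, which was lower at both sites. The scaled intensity summed over the 8 ran from 482 to 564 in retina and from 513 to 649 in cortex at the first site. There 1 of the 8, Cldn11, was lower, against 28.5% lower and 25.7% higher over all genes so counted. At site 2 the sum ran from 439 to 491 in retina and from 457 to 582 in cortex. There 1 of the 8 was lower and 1 higher, against 17.4% and 19.8%. Without cortex replicate 2 there, 3 were lower and 1 higher. The lower ones were Cldn11 and Mobp, both at background in retina, and Ugt8a, at background in both tissues at site 2. Calls over all probe sets then rose too, from 1959 to 2572 lower and from 2071 to 2803 higher. Neither Mog nor Cnp passed between the tissues at either site (limma adjusted p from 0.10 to 0.96), and at background no fold is given. Without cortex replicate 5 of the first site, Cnp was called lower in retina there (-0.38 ± 0.11, adjusted p = 0.015), still at background.

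The same RNA pools gave different readings of some probe sets at the 2 sites. In retina, 3 of the 15 were lower at site 2 than at the first site and none was higher, against 13.8% and 24.2% of all probe sets. In cortex 3 were lower and none higher, against 7.49% and 11.9% of all. With quantile normalization the calls over all probe sets were 2246 higher and 1910 lower in retina, against 3004 and 1715, and 1143 higher and 1130 lower in cortex, against 1476 and 930. Pdgfra 160332_at averaged 59.2 ± 43 in retina at site 2 and 100 ± 16 at the first site, and 29.0 ± 7.9 in cortex at site 2 and 106 ± 18 at the first site. The differences, site 2 minus first site, were -0.78 ± 0.27 in retina (log2, SE, limma adjusted p = 0.031) and -1.44 ± 0.27 in cortex (adjusted p = 0.0020). The retina call was lost without retina replicate 1 of site 2, whose value of 20.8 was the lowest (-0.35 ± 0.23, adjusted p = 0.25), and was -1.21 ± 0.23 without replicate 2, whose value of 105 was the highest. It was also lost without retina replicate 3 of site 2 (-0.79, adjusted p = 0.077) and without replicate 1, 4 or 5 of the first site (-0.77, -0.75 and -0.73, adjusted p = 0.051, 0.055 and 0.064).

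Cldn11 161529_r_at was lower at site 2 in both tissues, with differences of -0.53 ± 0.16 in retina and -0.85 ± 0.16 in cortex (limma adjusted p = 0.012 and 0.0017). Its retina difference did not pass without retina replicate 3 of site 2 (-0.36 ± 0.16, adjusted p = 0.11). The other 2 calls were Mag 102405_at in retina (-0.29 ± 0.10, adjusted p = 0.038) and Cnp in cortex (-0.56 ± 0.13, adjusted p = 0.0090), both at background. The Mag call was lost when any retina array of site 2 was left out (adjusted p = 0.077, 0.13 and 0.069) and without replicate 3, 4 or 5 of the first site (adjusted p = 0.064, 0.054 and 0.083). Without scaling, none of the calls between sites on Pdgfra 160332_at, Cldn11 161529_r_at, Mag 102405_at and Cnp passed (adjusted p from 0.063 to 0.42), and with the pseudocount added before centring Cnp in cortex and Mag 102405_at and Cldn11 161529_r_at in retina did not pass (adjusted p = 0.15, 0.46 and 0.053). The tissue difference itself did not differ between sites beyond the threshold for any of the 15 probe sets, where 4.18% of all probe sets passed the limma interaction test. At an unadjusted p under 0.05 there were 3 of 15.

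**Figure D3:**
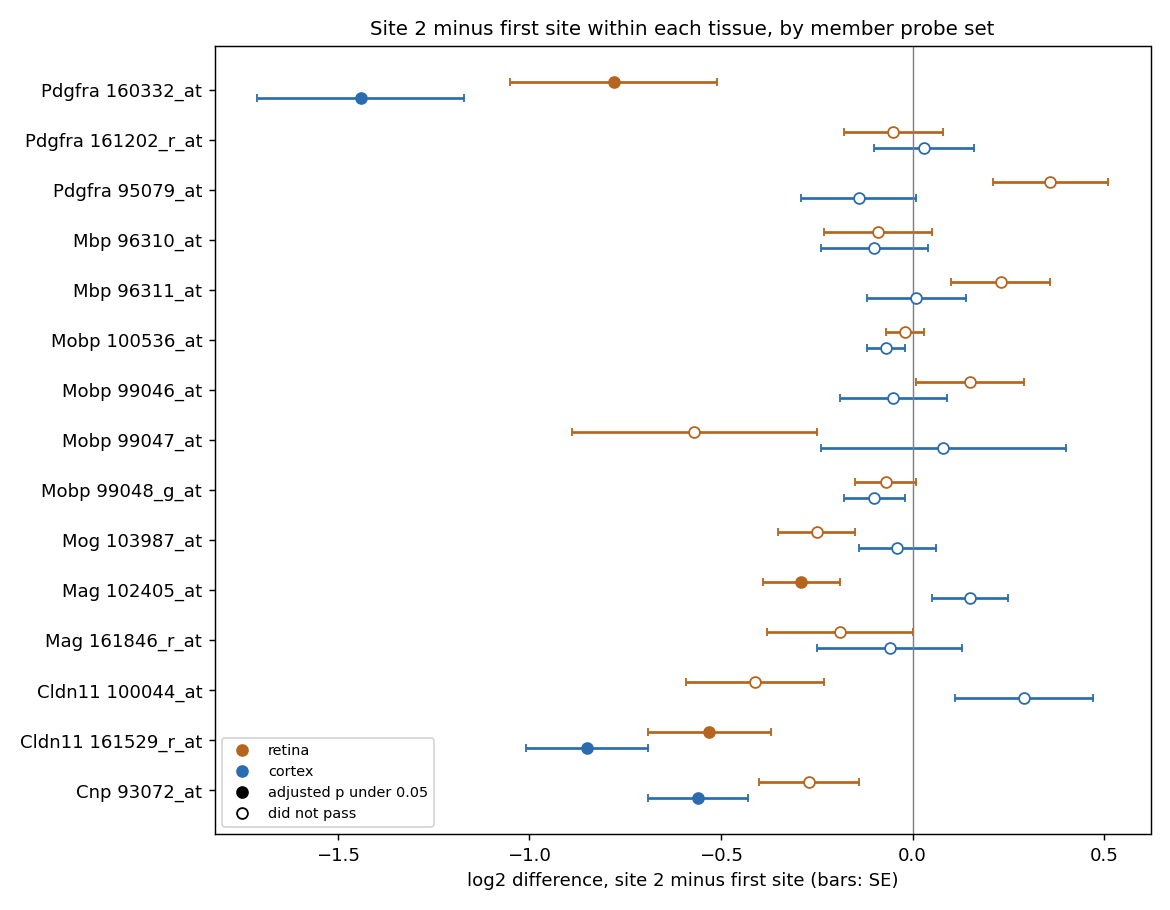
Log2 difference, site 2 minus first site, of each probe set in retina and in cortex, with bars of 1 SE and filled points where the limma adjusted p was under 0.05. Filled points lie left of 0 only, for Pdgfra 160332_at and Cldn11 161529_r_at in both tissues, Mag 102405_at in retina and Cnp 93072_at in cortex.

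Replicate arrays of a group spread about as much for these probe sets as for the rest of the table. The median SD of the log2 values was 0.16 for the members and 0.16 over all probe sets in retina at the first site, 0.20 and 0.16 in cortex there, 0.10 and 0.14 in retina at site 2, and 0.19 and 0.24 in cortex at site 2. The widest was Pdgfra 160332_at in retina at site 2, with an SD of 0.86.

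Other genes of the lineage were counted from 4 lists, each gene by its brightest probe set. Over all 8251 genes so counted, 28.5% were lower and 25.7% higher in retina at the first site, and 17.4% and 19.8% at site 2. Without cortex replicate 2, site 2 calls over all 12422 probe sets tested rose from 1959 to 2572 lower and from 2071 to 2803 higher. The list counts given without that array are to be read against this rise. Of 7 measured progenitor and lineage transcription factor genes, 4 were lower and 1 higher at the first site, with a median log2 difference of -0.35, and 4 lower and none higher at site 2, with a median of -0.66. Ptprz1, a receptor phosphatase of progenitors that radial glia share, was at background on all retina arrays on its brightest probe set. That probe set averaged 1520 in cortex at the first site, which is at least 63.1-fold less in retina. The other Ptprz1 probe sets differed by less there, at -2.18 and -2.91 (log2). On the brightest, the fitted log2 difference at site 2 was -5.97 ± 0.43, and -5.45 ± 0.20 without cortex replicate 2. Nkx2-2, a homeodomain factor of differentiating oligodendrocytes, averaged 17.9 over the retina arrays and 117 over the cortex arrays of the first site (-1.99 ± 0.14). Tcf7l2, a Wnt pathway factor that new oligodendrocytes use, differed by -0.84 ± 0.10. The member that went the other way was Myt1, a zinc finger factor of progenitors and young neurons, at 1.20 ± 0.09 (log2, SE), which did not pass at site 2 (0.69 ± 0.32, limma adjusted p = 0.15) but did without cortex replicate 2 (1.10 ± 0.09, adjusted p = 5.6e-05).

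Of 9 other measured proteins of myelin and its contacts with axons, 5 were lower and 2 higher in retina at the first site, and 3 lower and 2 higher at site 2. Without cortex replicate 2 the site 2 counts were 4 and 3. Other cells also make the members that changed most. Plp2, a proteolipid protein of many tissues, differed by -1.24 ± 0.08 on the log2 scale (SE), Cntn1, the axonal and glial adhesion protein contactin 1, by -0.94 ± 0.10, and Gpm6b, a membrane glycoprotein that neurons also make, by -0.59 ± 0.12. Pmp22, a protein of peripheral myelin that other cells make as well, was higher by 0.64 ± 0.11, with -0.01 on its other probe set. For Cntn1 the difference at site 2 was -2.19 ± 0.16, and it differed between sites (limma interaction -1.24 ± 0.19, adjusted p = 0.0011). Mal, a myelin proteolipid that was named after its values were seen, was higher in retina at site 2 (0.94 ± 0.28, adjusted p = 0.040) and did not pass at the first site (0.24 ± 0.16, adjusted p = 0.24). The site 2 call was lost when any retina array there, or cortex replicate 3, was left out (adjusted p from 0.083 to 0.12).

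Of 10 measured genes of myelin lipids and oligodendrocyte metabolism, 5 passed as higher in retina and 1 as lower at the first site, with a median log2 difference of 0.39, and 3 were higher and 1 lower at site 2, with a median of 0.06. Without cortex replicate 2 the site 2 counts were 4 and 3. Car2, a carbonic anhydrase of oligodendrocytes that Mueller glia of the retina make in quantity, averaged 3930 over the retina arrays and 213 over the cortex arrays of the first site (4.10 ± 0.06, log2, SE). Degs1, a desaturase of ceramide synthesis, was higher by 1.10 ± 0.09, and did not pass at site 2 (0.61 ± 0.31, limma adjusted p = 0.19) but did without cortex replicate 2 (1.00 ± 0.11, adjusted p = 0.00029). Cryab, a small heat shock protein that lens and glia share, was higher by 0.84 ± 0.15 (0.03 on its other probe set). Gsn, the actin-severing protein gelsolin, was lower by a difference of -0.99 ± 0.18. Ugt8a, the enzyme that makes galactosylceramide for myelin, was at background on every retina array and above it on 1 of the 5 cortex arrays of the first site. At site 2 it was at background in both tissues, yet was called lower without cortex replicate 2 (-0.71 ± 0.17, limma adjusted p = 0.013).

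Of 15 growth factors and receptors that act on the lineage, 5 were lower and 2 higher in retina at the first site, and 4 lower and none higher at site 2, where 8 were lower without cortex replicate 2. Pdgfa, the ligand of the receptor above, averaged 245 over the retina arrays and 604 over the cortex arrays of the first site (-1.24 ± 0.09, log2, SE) and 262 in retina and 700 in cortex at site 2 (-1.35 ± 0.16). Ntrk3, the neurotrophin 3 receptor, differed by -2.33 ± 0.21, and the fibroblast growth factor receptor genes Fgfr2 and Fgfr1 by -1.45 ± 0.12 and -1.04 ± 0.13. Igf1r, the insulin-like growth factor 1 receptor, went the other way at 0.61 ± 0.10, while at site 2 it was at -0.86 ± 0.35 (limma adjusted p = 0.10), and at -0.42 ± 0.11 (adjusted p = 0.013) without cortex replicate 2. Its interaction was -1.48 ± 0.32 (adjusted p = 0.015), and -1.03 ± 0.17 (adjusted p = 0.0020) without that array. Most of these receptors are used by neurons and other glia too.

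**Figure D4:**
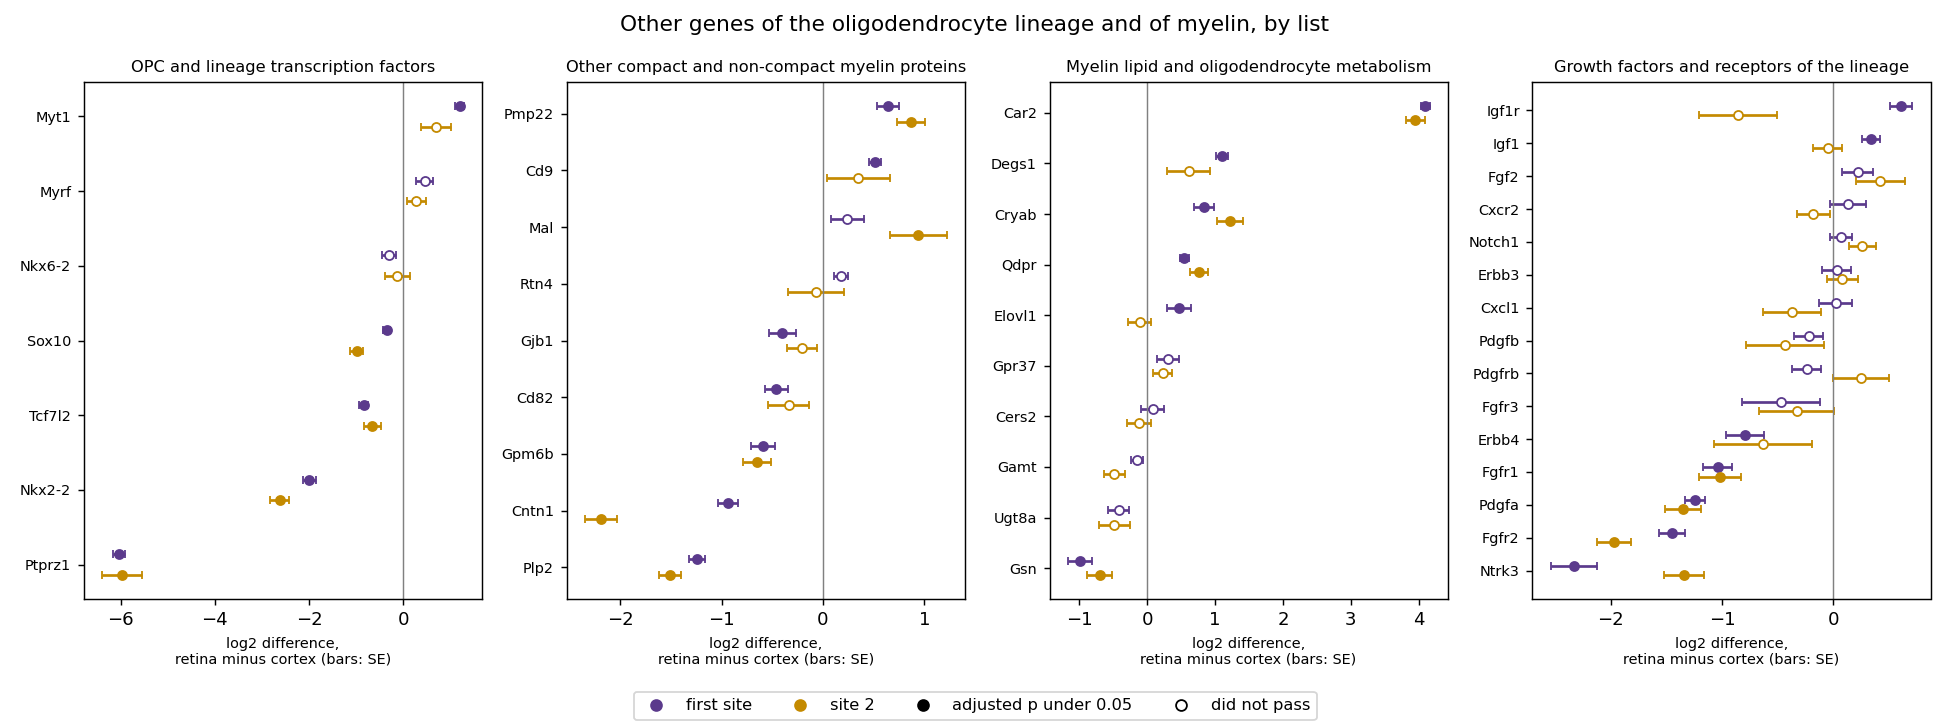
Log2 difference, retina minus cortex, of the measured genes of the 4 lists at the first site and at site 2, with bars of 1 SE and filled points where the limma adjusted p was under 0.05. Each gene is shown by its brightest probe set. Ptprz1 lies farthest to the left near -6.03 and Car2 farthest to the right at 4.10.

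The genes whose pattern over the 16 arrays came closest to a member's were found by the root mean square difference of their centred log2 values, among 8244 other genes. For Pdgfra 95079_at they were Col4a2, a basement membrane collagen, Cdca7, a gene of dividing cells, and Lrrfip1, at 0.18 to 0.19, where the median gene was at 0.85. The pattern compared includes the tissue difference, so genes chosen this way share it by selection. For these 3 it was -1.50 ± 0.08, -1.70 ± 0.12 and -1.74 ± 0.09 at the first site (log2, SE). For Cldn11 100044_at they were Smpdl3a, Cxcr4, a chemokine receptor of migrating cells, and Rflnb, at 0.25 to 0.27. For Mbp 96310_at the closest were Atp6v1g1, Banp and Nptn at 0.13 to 0.14, and for Mag 161846_r_at Spry4, Cxcl5 and Omd at 0.17 to 0.18, where the median gene lay at 0.41 and 0.43.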

How the data were processed

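Each 1-colour oligonucleotide array received biotin-labelled cRNA made from about 10 µg of total RNA, per the labels' protocols. The authors deposited 1 linear intensity per probe set and array. How they summarised probes, corrected background or scaled arrays is not given in the sources used here, and no common scaling was visible.

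Each array was scaled to a median of 100, 16 was added and log2 taken. Earlier work on these data added 16 before centring, which weighs dim probe sets by array brightness, and that order is kept as an alternative. Tests covered 12422 probe sets, without the 66 controls. Symbols came from the platform annotation, updated through Entrez identifiers to RefSeq GRCm38.p6, which also gave the promoter windows. Linear models (limma 3.58.1, R 4.3.3; lmFit, eBayes with trend = TRUE, two-sided) were fitted to each site alone for retina against cortex, and to all 16 arrays for differences between sites and the interaction. The procedure was tested on simulated data. Group means of intensity carry SDs, and differences carry SEs. The number of arrays limits the precision. "At least" folds raise dim values to the highest of 13 no-target controls.

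The members, lists and tests were chosen with earlier results of these data known. Named are all member probe sets, per list the 4 genes with the largest called difference at the first site and the one most against its list, and the 3 genes most like a member. Replicate arrays of a group correlated at 0.955 to 0.992 and none were identical. Same-numbered retina and cortex arrays did not deviate together (correlations from -0.09 to 0.11), so no pairing was used. Alternatives were pseudocounts of 1 and 50, the pseudocount before centring, no scaling, quantile normalization, probe sets above the median signal, no trend, the replicate number as a block, 1 fit of all arrays, and leaving out each array.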

Additional observations from a re-analysis of the deposited data

Results flagged for a closer look

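In groups of 5 arrays, an array was marked when its gap to the nearest other array was large against the group's range, by Dixon's critical value of 0.71. Over 30 such groups of the 15 probe sets there were 3, where chance marks about 1 group in 20. Cortex replicate 5 of the first site read 393 on Mbp 96310_at, with the nearest cortex array at 285. Cortex replicate 2 of the first site read 12.4 on Mobp 99046_at, with the nearest at 1.99, all at background. Retina replicate 2 of the first site read 48.6 on Mobp 99047_at, the only retina array there above background, with the nearest at 17.3. No cause was tested for these 3 values.

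None of the 15 probe sets passed the limma interaction test of tissue and site, although Pdgfra 95079_at did without cortex replicate 2 of site 2 (0.73 ± 0.15, adjusted p = 0.0082). Among the other genes described, 6 passed. The site 2 difference, retina minus cortex, minus that of the first site was -0.64 ± 0.13 for Sox10 (log2, SE, adjusted p = 0.0093), -1.24 ± 0.19 for Cntn1 (adjusted p = 0.0011), -1.48 ± 0.32 for Igf1r (adjusted p = 0.015), -0.71 ± 0.15 for Dcn (adjusted p = 0.013) and 0.66 ± 0.16 for Lrrfip1 (adjusted p = 0.03). For Aqp4, a water channel of astrocytes and Mueller glia, it was -1.83 ± 0.19 (adjusted p = 2.8e-05), with differences of -0.22 ± 0.19 at site 2 and 1.62 ± 0.09 at the first site. None of the 6 passed without scaling, Dcn did not pass with quantile normalization (-0.43, adjusted p = 0.1), and Sox10 and Lrrfip1 did not with the replicate block. The Lrrfip1 call was also lost on leaving out any of 5 single arrays (adjusted p from 0.051 to 0.083).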

How the results depend on the processing

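No called difference of a member probe set changed sign under any alternative run. Of 1525 member values recomputed, 1473 stayed on their side of the threshold, 33 lost a call and 19 gained one. Of 4498 values of the other genes, 4363 stayed, 77 lost a call and 58 gained one, and none reversed. The member calls at the first site numbered 4, and 1 among probe sets above the median signal, where only 2 member probe sets remain to be tested. Leaving out single arrays gave 4 to 6. At site 2 they numbered 4, then 2 without scaling, 1 among probe sets above the median signal, and 2 to 5 without single arrays: 2 without any retina array and 5 without cortex replicate 2. Over all probe sets, leaving out single arrays gave 5663 to 5940 tissue calls at the first site and 2767 to 5375 at site 2, 3509 to 5642 between sites in retina, 1826 to 3248 between sites in cortex, and 271 to 798 for the interaction. Without scaling, which leaves array brightness in the values, the counts were 781 for the tissues at site 2, 290 and 79 between sites in retina and cortex, and 34 for the interaction. With no scaling the split at the first site was 2351 higher and 2062 lower, against 2772 and 3184. For the interaction, quantile normalization gave 221 higher and 228 lower, against 340 and 179. With the replicate block the interaction count was 305 against 519, and member calls at the tissue comparison were 4 and 5, the added one being Mobp 99047_at. The arrays share only a number. For both site differences the block was fitted as a random effect, because a fixed block determines the site. The cause of the changes in these counts was not tested. Signal at background limits Mog, Cnp, most Mobp and 1 Mag probe set, for which no change could be measured.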
